A study of Ovis aries with 6 samples.

Results

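The genes described here encode the enzymes that keep glutathione and thioredoxin reduced and use them to remove peroxides, together with the superoxide dismutases, catalase and the NFE2L2, KEAP1 and NQO1 genes. The rule that defines them reads gene symbols alone and takes the rows whose names begin with a glutathione S-transferase, MGST, GPX, PRDX, TXN or SOD root, plus GCLC, GCLM, GSS, GSR, CAT, SRXN1, NQO1, NFE2L2 and KEAP1. This gave 49 members of the 23144 genes in the deposited table, and the rule uses no measured value. RNA-seq libraries were made from the longissimus dorsi, the long muscle of the back, of sheep from a pair of breeds. Qianhua Mutton Merino (QHMM, n = 3) is a recently bred meat and wool breed, and Small Tail Han (STH, n = 3) is a traditional local one. All 6 animals were females aged 1 year, kept in the same environment without a treatment, and each gave 1 library, so a replicate is an animal. All differences are given as STH vs. QHMM, so a negative log2 fold change means a lower level in STH.

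Glutathione is a small thiol peptide made by the glutamate-cysteine ligase (GCLC and GCLM) and glutathione synthetase (GSS), and its oxidised form is returned by glutathione reductase (GSR). Glutathione peroxidases and transferases spend it on peroxides and electrophiles, while peroxiredoxins are recharged by thioredoxin, which thioredoxin reductase keeps reduced with NADPH. In skeletal muscle, these enzymes meet the peroxide that mitochondria and oxidases release during contraction, and many of them are induced by the transcription factor NFE2L2 when its inhibitor KEAP1 lets it go.

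The libraries held 10982200 to 14334500 gene counts, of which the 49 genes took 0.225% to 0.268%. Levels of different genes were compared by the deposited RPKM, which corrects for gene length. Differences between breeds were tested on the counts with edgeR, and values per library are given as normalized counts, the counts divided by the effective library size and scaled to 13044142 reads. Of the 49 genes, 44 passed the filter on low counts. GPX5, GPX6 and TXNDC8 had no read in any library, which allows a level of up to 3 counts in the 77333825 reads of all 6 libraries (counting error only). TXNDC2 had 1 read in all. GSTO2, a transferase of the omega class, had 0, 0 and 2 reads in QHMM and 3, 2 and 12 reads in STH, and was not tested.

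The 9 role groups differed widely in level. The highest level in both breeds was that of PRDX2, a cytosolic peroxiredoxin abundant in red blood cells, with an RPKM of 338 ± 14.2 in QHMM and 247 ± 51.8 in STH (mean ± SD, n = 3 for all means here). GSTP1, the pi class transferase, and GPX3, the glutathione peroxidase secreted into plasma, followed when both breeds were averaged. In STH, GPX3 lay within the SD of PRDX2, at 241 ± 28.3 RPKM, whereas in QHMM it was far below it, at 98.7 ± 2.89. The 4 genes of glutathione synthesis and reduction lay far below them, with breed means between 1.51 and 4.11 RPKM. The thioredoxin-domain protein TXNDC16 was the lowest of the tested genes, at 0.428 ± 0.228 RPKM in QHMM and 0.577 ± 0.312 in STH.

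**Figure D1:**
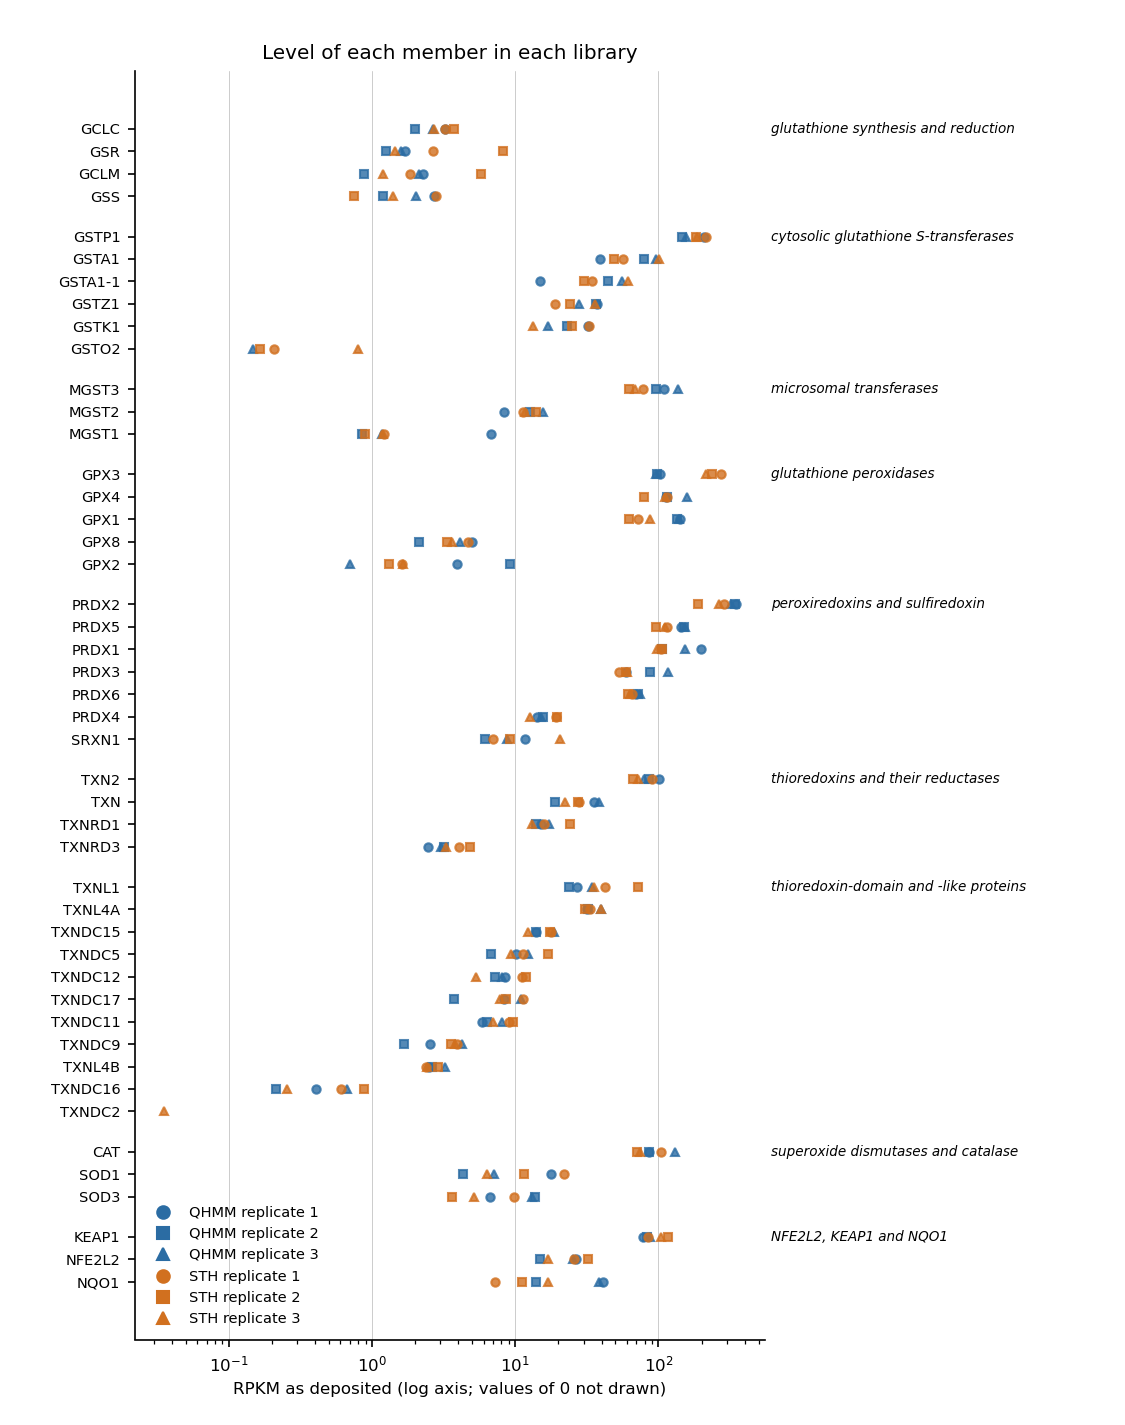
RPKM of the members in each library on a log axis, grouped by role, with the colour giving the breed and the shape the replicate. The peroxiredoxins other than PRDX4 and GPX1, GPX3 and GPX4 sit near the top of the range. The glutathione synthesis genes sit at a few RPKM, and members at 0 are not drawn on this axis.

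A gene was called when its FDR over the 12506 genes tested was below 0.05 and its fold change above 1.5 in either direction. Of the 44 tested antioxidant genes, 1 was called (2.27%), against 3.45% of all genes tested. That gene was GPX3, which was up-regulated in STH (1.62% of all genes were called in that direction), and none was called down-regulated (1.83% of all genes). Under an unadjusted p of 0.05 were 12 of the 44 genes (27.3%), against 19.2% of all genes, and of these GPX3, GSR and TXNL1 had positive estimates. DESeq2 called 3 members down-regulated, namely MGST3, GPX1 and NQO1. Over all genes, it made 420 up-regulated and 555 down-regulated calls. The libraries of the breeds did not overlap for 8 of the 44 genes (18.2%), compared with 24.7% of all genes. GSR, GPX3 and TXNL1 were the 3 with all STH libraries above all QHMM libraries (background 13%), and MGST3, GPX1, PRDX1, PRDX2 and PRDX5 the 5 with all STH libraries below (background 11.7%). The median log2 fold change was -0.09 over the 44 genes and 0.02 over all genes, with 20 positive and 24 negative estimates.

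**Figure D2:**
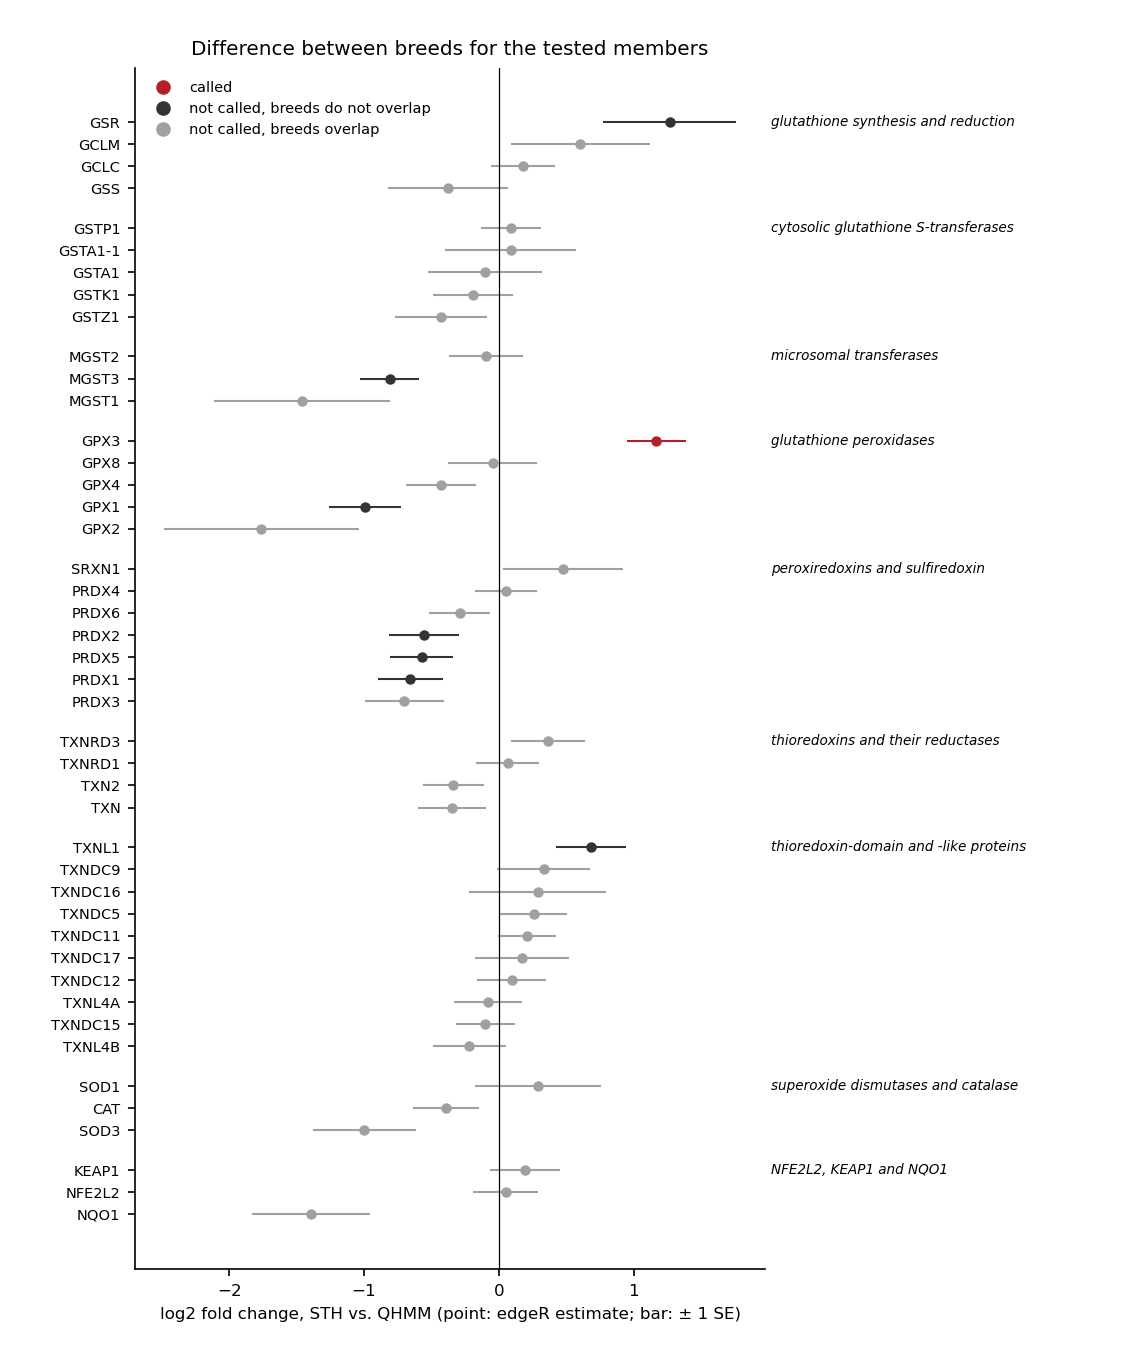
Log2 fold change of STH vs. QHMM for the 44 tested members, by role, with bars of 1 SE from edgeR. GPX3, at 1.17, is the called gene, and the estimates of GPX1, MGST3 and the peroxiredoxins PRDX1, PRDX2, PRDX3 and PRDX5 lie to the left of 0.

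None of the 4 genes that make or restore glutathione passed the test, and 3 of the 4 estimates were positive. GSR, the NADPH-dependent enzyme that reduces oxidised glutathione, had normalized counts of 52.2, 46.0 and 48.1 in QHMM (replicates 1 to 3, the order used throughout) and 69.9, 232 and 53.1 in STH. The breeds did not overlap, but STH replicate 2 stood far above the other STH libraries, and the difference was not significant (log2 fold change 1.27 ± 0.49 SE, FDR = 0.189). Without that library, the estimate was 0.32. GCLM, the modifier subunit of the ligase, was also highest in that library, at 149.8 against 44.1 and 39.5 in the other STH libraries (0.61 ± 0.51, FDR = 0.569). GCLC, the catalytic subunit of the first step, was the most abundant of the 4 by RPKM in QHMM. It had normalized counts of 177, 129.9 and 142 in QHMM and 149, 188 and 174 in STH, and the breeds overlapped (0.18 ± 0.24, FDR = 0.731). GSS, which adds glycine in the second step, had the one negative estimate (-0.38 ± 0.44, FDR = 0.693).

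Among the glutathione peroxidases, GPX3 rose and GPX1 had lower values in every STH library. GPX3 had normalized counts of 1693, 1927 and 1573 in QHMM and 3814, 3609 and 4246 in STH. Every STH library was well above every QHMM library, and GPX3 was up-regulated (log2 fold change 1.17 ± 0.22 SE, FDR = 0.0211). The estimate stayed between 1.10 and 1.26 when any 1 library was left out, but the call was lost without QHMM replicate 1, 2 or 3, with FDRs of 0.0869, 0.0542 and 0.0857. GPX1, the selenium-dependent peroxidase of cytosol and mitochondria, went the other way, with 1489, 1701.2 and 1454 in QHMM and 643, 599 and 1093 in STH. The breeds did not overlap, STH replicate 3 lay nearest to QHMM, and the difference missed the threshold (-0.99 ± 0.26, FDR = 0.0683). Without STH replicate 3, GPX1 was called down-regulated (-1.31, FDR = 0.0257), and DESeq2 called it with all 6 libraries (FDR = 0.0102).

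GPX4, which reduces lipid peroxides within membranes, had 1229, 1479 and 1704 normalized counts in QHMM and 1059, 792 and 1431 in STH, and its breeds overlapped (-0.43 ± 0.26, FDR = 0.406). GPX2, best known from the gut epithelium, was low in this muscle. It had 52.2, 145 and 9.22 normalized counts in QHMM and 18.3, 16.2 and 26.0 in STH, so that QHMM replicates 1 and 2 were high and QHMM replicate 3 lay below every STH library (-1.76 ± 0.73, FDR = 0.216). Without QHMM replicate 2, the estimate was -0.62. GPX8, a peroxidase of the endoplasmic reticulum, gave an estimate close to 0 (-0.04 ± 0.33, FDR = 0.961).

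The make-up of the peroxidase transcripts differed between the breeds while their sum overlapped. In QHMM, the glutathione peroxidase members summed to 364, 359 and 400.2 RPKM, and in STH to 465, 383 and 419 RPKM. The sums leave out LOC101115673, a row under another symbol that is annotated as GPX7. It had 6.06 ± 1.96 RPKM in QHMM and 4.35 ± 1.53 in STH (-0.59 ± 0.29, FDR = 0.297). GPX3 supplied 28.0%, 27.2% and 24.1% of that sum in QHMM and 58.4%, 61.9% and 51.5% in STH. The RPKM ratio of GPX3 to GPX1 lay between 0.688 and 0.723 in QHMM and between 2.47 and 3.83 in STH, and does not depend on library scaling. Without GPX3, the summed RPKM was 276 ± 24.3 in QHMM and 181 ± 30.6 in STH, and the breeds did not overlap. An exact permutation test of 3 against 3 libraries cannot give a p below 0.1, so these sums and ratios are given without a test.

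**Figure D3:**
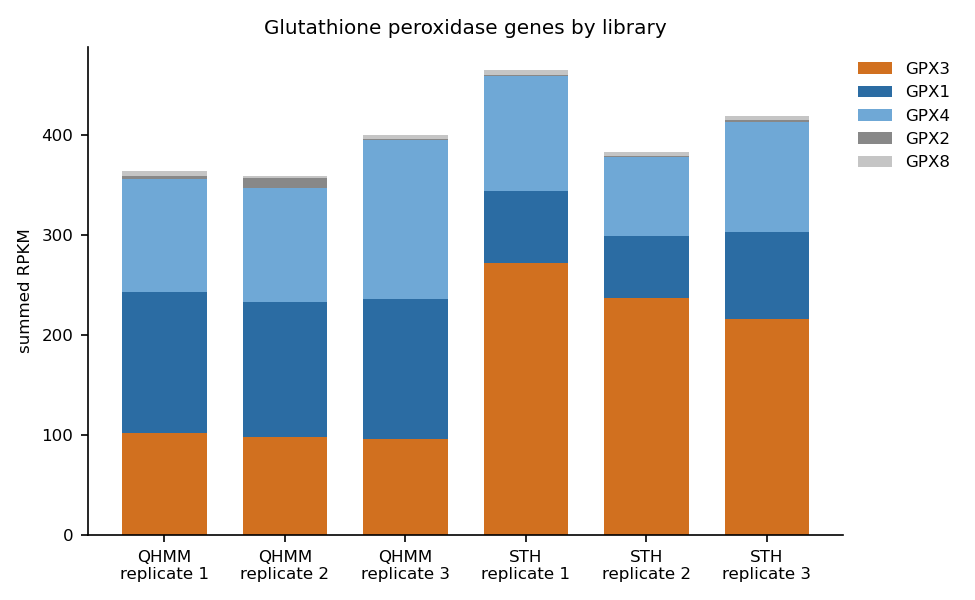
Stacked bars of the RPKM of the 5 glutathione peroxidase members with reads, 1 bar per library, with GPX3 at the base. GPX3 supplied between 24.1% and 28.0% of the peroxidase RPKM in the QHMM libraries and between 51.5% and 61.9% in the STH libraries.

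The peroxiredoxins other than PRDX4 were among the most abundant of the genes, and no peroxiredoxin was called. All but PRDX4 among the 6 had negative estimates. PRDX1, a cytosolic peroxiredoxin that NFE2L2 is known to induce, had normalized counts of 2339, 1482 and 1791 in QHMM and 1039, 1141 and 1379.7 in STH. The breeds did not overlap, and the difference was not significant (-0.66 ± 0.24, FDR = 0.168). PRDX5, found in mitochondria, peroxisomes and cytosol, had 1747, 2192 and 1826 in QHMM and 1192, 1075 and 1608 in STH, again without overlap (-0.57 ± 0.23, FDR = 0.211). For PRDX2, with 2696, 3138 and 2442 in QHMM and 1878, 1335 and 2412 in STH, the lowest QHMM and the highest STH library all but met (-0.56 ± 0.26, FDR = 0.277). PRDX3, the mitochondrial peroxiredoxin, had 1206, 2106 and 2355 in QHMM and 916, 1108 and 1462 in STH. QHMM replicate 1 lay within the STH range, and the estimate was -0.70 ± 0.29 (FDR = 0.220).

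PRDX6, which uses glutathione rather than thioredoxin, had an estimate of -0.29 ± 0.22 (FDR = 0.524). PRDX4, the secretory pathway member of the family, had 0.06 ± 0.23 (FDR = 0.928). Added together, the 6 peroxiredoxins had an RPKM of 833, 774 and 836 in QHMM and 645, 531 and 609.9 in STH, and the breeds remained apart after division by the TMM factors. SRXN1, the sulfiredoxin that repairs over-oxidised peroxiredoxins, was highest in STH replicate 3 at 797 normalized counts, against 195 and 275 in the other STH libraries and 239.7 to 385 in QHMM (0.48 ± 0.45, FDR = 0.611).

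**Figure D4:**
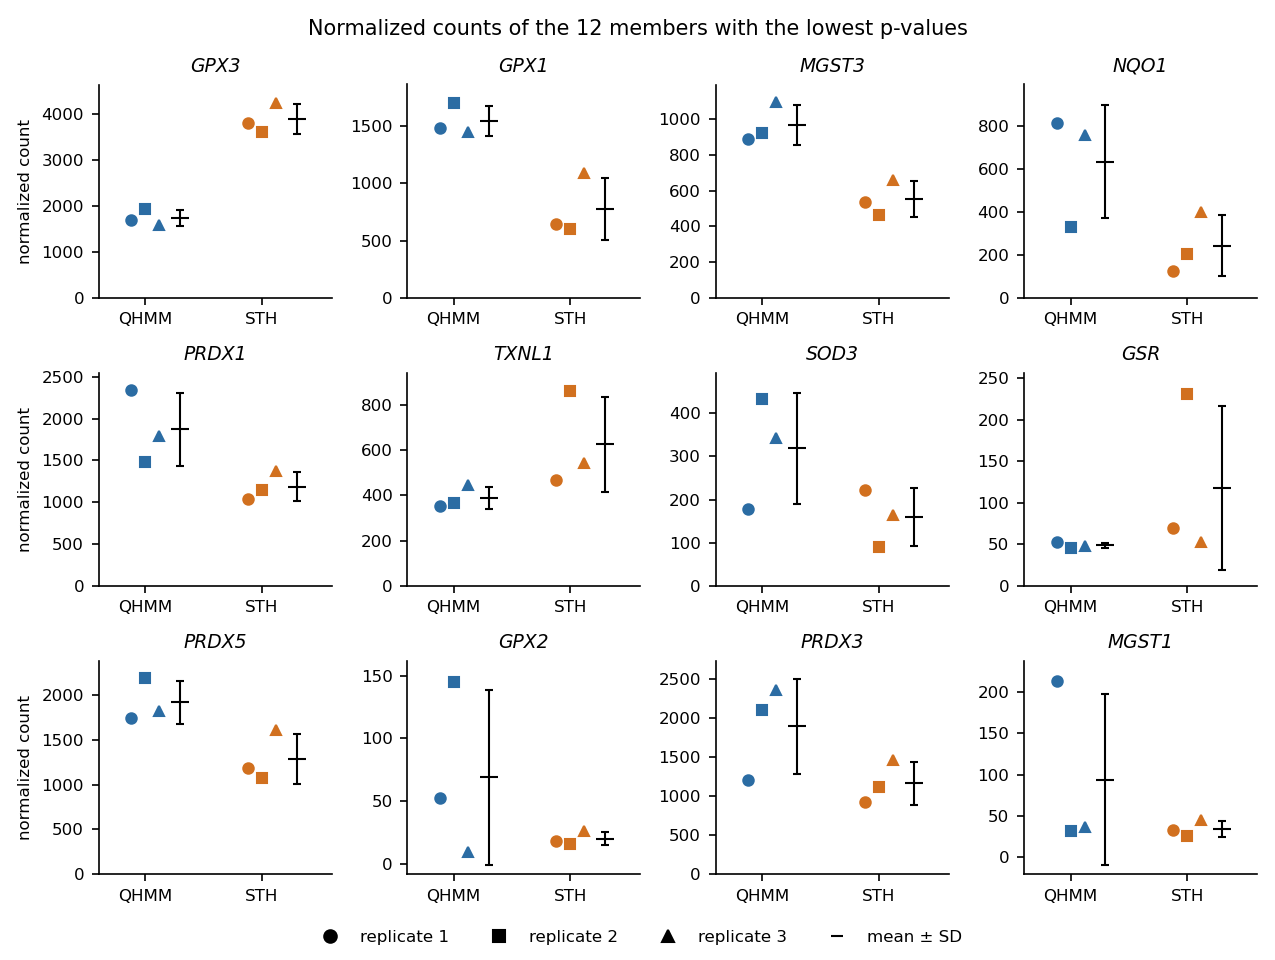
Normalized counts per library of the 12 members with the lowest p-values, with the mean and 1 SD of each breed (n = 3). GPX3 is the panel in which the STH libraries, from 3609 to 4246, lie far above the QHMM libraries, and NQO1, GPX2, MGST1, PRDX3 and SOD3 are panels in which the breeds overlap.

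The thioredoxins and thioredoxin reductases showed no call and no gene with separated breeds. TXN2, the mitochondrial thioredoxin, was the most abundant of the 4 by RPKM (88.6 ± 11.5 in QHMM and 76.0 ± 12.1 in STH). It had normalized counts of 1771, 1773 and 1355 in QHMM and 1322, 1061 and 1495 in STH (-0.34 ± 0.23, FDR = 0.465). TXN, the cytosolic thioredoxin, had 240.4, 153 and 254 in QHMM and 161, 170.3 and 179 in STH. QHMM replicate 2 lay below all STH libraries (-0.35 ± 0.25, FDR = 0.494). TXNRD1, the selenium-containing reductase of the cytosol, was at 766 ± 47.2 in QHMM and 802 ± 213 in STH (0.07 ± 0.23, FDR = 0.912). TXNRD3, a reductase best known from testis, was lower in level, at 2.87 ± 0.387 RPKM in QHMM and 4.07 ± 0.776 in STH (0.37 ± 0.27, FDR = 0.515).

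Of the 12 thioredoxin-domain and thioredoxin-like genes, 10 were tested, 7 had positive estimates and none was called. TXNL1, a cytosolic thioredoxin-like protein that binds the proteasome, had 355, 368 and 444 normalized counts in QHMM and 468, 864 and 546 in STH. All STH libraries were above QHMM, STH replicate 2 was the highest, and the difference was not significant (0.68 ± 0.26, FDR = 0.180). Without STH replicate 2, the estimate was 0.36. TXNL4A, which despite its fold is a part of the spliceosome, had 304, 365 and 373 in QHMM and 269.7, 268 and 449 in STH, and the breeds overlapped (-0.08 ± 0.25, FDR = 0.901). The estimates of the 8 others lay between those of TXNL4B (-0.22 ± 0.27) and TXNDC9 (0.33 ± 0.34).

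Each gene was also assigned to a cell compartment. The 6 genes assigned to the endoplasmic reticulum had a median log2 fold change of 0.15 and FDRs of at least 0.619. The microsomal transferases MGST1, MGST2 and MGST3 were entered as membrane proteins and are not among these 6. Their estimates were -1.46, -0.10 and -0.81, with an FDR of 0.0712 for MGST3. The 7 with a mitochondrial product had a median of -0.43, with 6 negative estimates and GSR as the positive one. Of these 7, none was called and 3 had breeds that did not overlap (42.9%, against 24.7% of all genes). The compartments were not tested against each other.

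Among the glutathione S-transferases other than the microsomal ones, which couple glutathione to electrophiles, no gene passed the test. GSTP1 had normalized counts of 1870.3, 1552 and 1373 in QHMM and 1628, 1498 and 1982 in STH, and the breeds overlapped (0.09 ± 0.23, FDR = 0.871). GSTA1, of the alpha class, had 338, 808 and 818 in QHMM and 413, 387 and 1031 in STH, so the spread within a breed exceeded the difference between breeds (-0.10 ± 0.42, FDR = 0.927). The row GSTA1-1 followed the same order of libraries within STH (379.6, 363 and 962). The count ratio of GSTA1-1 to GSTA1 was 0.579, 0.852 and 0.880 in the QHMM libraries and between 0.919 and 0.939 in the STH libraries, without overlap. Both names belong to the alpha class, and how reads were divided between these rows was not tested. GSTZ1, which also acts in tyrosine breakdown, and GSTK1, found in mitochondria and peroxisomes, had estimates of -0.43 ± 0.34 and -0.19 ± 0.30.

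The 3 microsomal transferases, membrane enzymes that also reduce lipid peroxides, had negative estimates and none was called. MGST3 had 889.7, 921 and 1095 normalized counts in QHMM and 534, 461 and 661 in STH. The breeds were clearly apart, and the difference missed the threshold in edgeR (-0.81 ± 0.22, FDR = 0.0712), while DESeq2 called it (FDR = 0.0227). MGST1 was low apart from QHMM replicate 1. It had 213, 31.9 and 36.9 in QHMM and 32.5, 25.9 and 45.2 in STH (-1.46 ± 0.65, FDR = 0.254), and without QHMM replicate 1 its estimate was -0.02. The same library had the highest sum of 6 adipocyte markers (5181 normalized counts, against 1672 and 2301 in the other QHMM libraries), whose part in the MGST1 value was not tested. MGST2 had 207, 368 and 379.9 in QHMM and 237, 315 and 341 in STH, and its breeds overlapped (-0.10 ± 0.27, FDR = 0.888).

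Some members of the same families are listed under another symbol, and 20 such rows were found from the annotation deposited with the counts after the files had been read. Of these, 15 were tested and none was called by edgeR, with 6 under an unadjusted p of 0.05 (19.2% of all genes were), while DESeq2 called 1 up-regulated and 4 down-regulated (420 and 555 of the 12506 genes). Estimates were negative for 11 of the 15, and 6 had breeds that did not overlap (24.7% of all genes). LOC101111664, annotated as the theta class transferase GSTT1, had normalized counts of 86.4, 86.2 and 73.7 in QHMM and 21.6, 42.0 and 37.3 in STH, and narrowly missed the threshold (-1.30 ± 0.32, FDR = 0.0553). LOC101107831, annotated as the mu class transferase GSTM1, had 304, 340.0 and 231 in QHMM and 89.1, 56.0 and 188 in STH (-1.40 ± 0.39, FDR = 0.0784). In both rows, every STH library lay below every QHMM library.

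The following rows were singled out after their values were seen. LOC101108092 and LOC101108705, also annotated as GSTM1, were more abundant by RPKM (163 ± 32.4 and 66.3 ± 4.59 in QHMM) and had estimates of -1.22 ± 0.40 (FDR = 0.122) and -0.93 ± 0.28 (FDR = 0.104), both without overlap. LOC101107401, with the same annotation, had -0.13 ± 0.28, and LOC100037663, annotated as GSTM3, had -0.77 ± 0.51 with overlapping breeds. In the order of the RefSeq gene table, LOC101107401 and LOC101107831 are neighbours, as are LOC101108092, LOC101108705 and LOC100037663. How reads were divided between these rows was not tested. VDUP1, annotated as the thioredoxin inhibitor TXNIP, was the most abundant of the 15 by RPKM (361 ± 195 in QHMM and 866 ± 275 in STH). It had normalized counts of 20274, 16936 and 5704 in QHMM and 36081, 29229 and 26349 in STH. The breeds did not overlap, QHMM replicate 3 was far below the rest, and the difference was not significant (1.09 ± 0.41, FDR = 0.176).

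**Figure D5:**
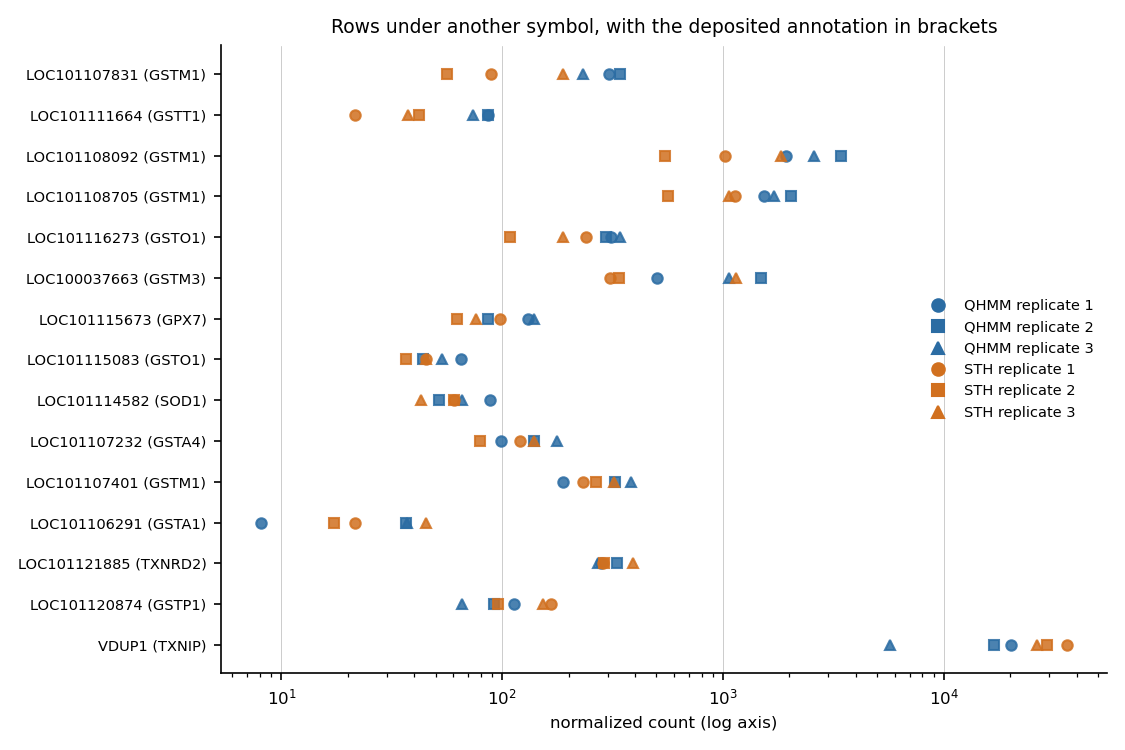
Normalized counts per library, on a log axis, of the 15 tested rows listed under another symbol, with the deposited annotation in brackets, ordered by log2 fold change. For the rows LOC101107831, LOC101111664, LOC101108092, LOC101108705 and LOC101116273, every STH library lies below every QHMM library, and for VDUP1 every STH library lies above.

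Neither catalase nor a superoxide dismutase passed the test, and the breeds overlapped for all 3 genes. CAT, the peroxisomal enzyme that splits hydrogen peroxide without a thiol, had 2519.5, 3029 and 3787 normalized counts in QHMM and 2585, 1929 and 2594 in STH. QHMM replicate 1 lay inside the STH range (-0.39 ± 0.25, FDR = 0.424). SOD3, the secreted dismutase bound to the extracellular matrix, had 178, 434 and 343 in QHMM and 223, 89.4 and 164 in STH. QHMM replicate 1 lay below STH replicate 1, and the estimate was -0.998 ± 0.38 (FDR = 0.185). SOD1, the copper and zinc dismutase of the cytosol, was read at a low level, with 163, 47.2 and 63.5 in QHMM and 169.8, 97.0 and 68.9 in STH. Replicate 1 was the highest in each breed (0.29 ± 0.47, FDR = 0.788). A further row, LOC101114582, is also annotated as SOD1, so the level of SOD1 is uncertain. SOD2, the mitochondrial dismutase, was not analysed here.

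The levels of NFE2L2 and KEAP1 overlapped between the breeds. NFE2L2 had 876, 583 and 828 normalized counts in QHMM and 723, 985 and 664 in STH (0.05 ± 0.24, FDR = 0.937). KEAP1 had 2509.6, 3195 and 2765 in QHMM and 2289, 3442 and 3957 in STH, and again the breeds overlapped (0.19 ± 0.26, FDR = 0.735). NQO1, a quinone reductase and a standard NFE2L2 target, had lower values in STH, with 815, 331 and 757 in QHMM and 122, 205 and 400.0 in STH. QHMM replicate 2 lay below STH replicate 3, and the difference was not significant in edgeR (-1.39 ± 0.44, FDR = 0.112), whereas DESeq2 called it (FDR = 0.0132). Without STH replicate 3, the estimate was -1.96 and NQO1 was called (FDR = 0.0423).

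Genes that work beside these were read from 4 lists. Of 17 further NFE2L2 targets, 15 were tested, 1 was called up-regulated (1.62% of all genes) and none down-regulated (1.83% of all genes), with a median log2 fold change of 0.29. The called gene was HMOX1, the heme oxygenase that breaks heme into biliverdin, iron and carbon monoxide, with 195, 117 and 74.8 normalized counts in QHMM and 769, 1598 and 1153 in STH (3.18 ± 0.39, FDR = 0.00450). Second by p-value came FTH1, the ferritin heavy chain, with all STH libraries above QHMM (0.86 ± 0.25, FDR = 0.0877). HMOX1 and NQO1, both NFE2L2 targets, thus had estimates of opposite sign.

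Of 30 further glutathione and thiol genes, 23 were tested and 1 was called, which was down-regulated (1.83% of all genes). GLRX5, a mitochondrial glutaredoxin that passes on iron-sulfur clusters, had 1541, 1999 and 1426 in QHMM and 638, 329 and 906 in STH, and the breeds did not overlap (-1.41 ± 0.34, FDR = 0.0491). That call was lost without QHMM replicate 1, 2 or 3 and without STH replicate 1 or 2. GLO1, which uses glutathione to clear methylglyoxal, was next (-0.80 ± 0.23, FDR = 0.0895). The median of that list was -0.10.

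NADPH is the reductant of both systems. Of 14 genes in a list drawn up around NADPH supply, whose members need not all make NADPH, 13 were tested. Of these, 1 was called, again down-regulated (1.83% of all genes), and the median was -0.31. IDH1, the cytosolic isocitrate dehydrogenase, had 365, 211 and 300.0 in QHMM and 139, 89.4 and 72.3 in STH (-1.54 ± 0.31, FDR = 0.0266), a call lost without QHMM replicate 1 or 3 and without STH replicate 2 or 3. ME2, a mitochondrial malic enzyme, was next (-0.99 ± 0.30, FDR = 0.0964). Of 23 selenoprotein and selenium-handling genes, 14 were tested and none was called by edgeR or DESeq2, with 4 under an unadjusted p of 0.05 (19.2% of all genes) and a median of 0.22. The lowest p-values belonged to VIMP, a selenoprotein of the endoplasmic reticulum (0.96 ± 0.33, FDR = 0.139), and SEPHS2, which makes the selenium donor (1.09 ± 0.40, FDR = 0.165). SEPHS2 was highest in STH replicate 2 at 1587 normalized counts, against 440.4 and 654 in the other STH libraries.

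Within a breed, the antioxidant genes varied about as much as other genes. Over the 44 genes, the median coefficient of variation was 20.5% in QHMM and 25.7% in STH, against 20.7% and 23.9% over all genes. STH replicate 3 was the highest STH library for 26 of the 44 genes (59.1%, against 34.5% of all genes), and STH replicate 1 for 5 (11.4%, against 32.4%). By normalized count, GPX1, NQO1, MGST3, PRDX1, PRDX2, PRDX3 and PRDX5, all lower in STH, were among those highest in STH replicate 3. On that scale, it was the STH library nearest to QHMM for them. The order rests in part on the TMM factors, 0.853 for STH replicate 3 against 1.20 and 1.10 for STH replicates 1 and 2. By the deposited RPKM, MGST3, PRDX2 and PRDX5 were highest in STH replicate 1, and PRDX1 in STH replicate 2. GPX1, NQO1 and PRDX3 stayed highest in STH replicate 3.

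The libraries also differed in markers of the cells they hold, and in whole tissue fewer cells of a type cannot be told apart from less RNA per cell. The muscle markers were abundant and overlapped between breeds. The summed normalized counts of the 8 slow fibre markers ranged from 423387 to 458554 in QHMM and from 163297 to 196697 in STH. OMYHCS was the largest part of that sum, with 189690 to 262293 in QHMM and 87857 to 94873 in STH. Of the 8 markers, 4 were called lower (1.83% of all genes). The 6 adipocyte markers summed to 1672 to 5181 in QHMM and 833 to 1156 in STH. Of these 6, the 4 genes ADIPOQ, PLIN1, LEP and CIDEC were called lower (1.83% of all genes). FABP4 and CFD had overlapping breeds, with estimates of -0.04 ± 0.61 and -0.05 ± 0.27. ADIPOQ was the largest part of the sum, with 1111 to 3225 in QHMM and 397 to 516 in STH. Endothelial markers (4 tested, none called) summed to 7511 to 7840 in QHMM and 8145 to 9521 in STH, and fibroblast markers (4 tested, none called) to 11087 to 17989 and 4806 to 9876. Singly, VWF and EMCN had separated breeds, while PECAM1 and CDH5 overlapped. Of the fibroblast markers, COL1A1 was separated, while DCN, LUM and PDGFRA overlapped. The part of these marker differences in the values of GPX3, GPX1, MGST3 and the peroxiredoxins was not tested. The 8 leukocyte markers overlapped, with 1244 to 1583 in QHMM and 899 to 1573 in STH. PRDX2 and GPX1 are abundant in red blood cells. Of 10 red blood cell markers listed, 3 were read (ALAS2, SLC4A1 and AHSP), and none of these is a hemoglobin gene. The 3 were at or near 0 (sums of 0 to 9.005 in QHMM and 2.26 to 19.98 in STH, with SLC4A1 at 0 throughout). Without the hemoglobin genes, they cannot show how much blood the samples held, and its part in the PRDX2 and GPX1 values was not tested. The 3 hepatocyte markers were also near 0, with sums of at most 17.4 and 14.7.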

How the data were processed

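Poly(A)-containing RNA of longissimus muscle from 3 QHMM and 3 STH animals was fragmented and sequenced on an Ion Proton instrument. The authors mapped the filtered reads to the sheep genome (Oar 3.1), kept unique mapped reads and deposited raw counts per gene. The deposited RPKM values equal the count divided by gene length and library total (to a relative 5.73e-06 over 13822 genes), and carry no upper-quartile factor, although the methods mention one. Aligner, counter, strand setting and annotation release are not given in the sources used here. Unique mapping can remove reads of genes with near-identical copies. Sequence similarity between the transferase rows was not measured here.

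Counts were tested in R 4.3.3 with edgeR 4.0.16 (TMM, filterByExpr on breed, glmQLFit and glmQLFTest, breed as the only term, Benjamini-Hochberg adjustment over 12506 genes), since EBSeq, the program of the study, was not installed. SEs were computed as the absolute log2 fold change over the square root of F. Library totals ranged from 10982200 to 14334500. Alternatives were DESeq2 1.42.0, robust dispersions, a block for the replicate number, upper-quartile scaling, testing every gene with a read, keeping genes with 10 or more counts in each library, limma-trend (limma 3.58.1) on RPKM with pseudocounts of 1 and 0.1 on the log2 scale (genes reaching an RPKM of 1 in 3 or more libraries), no minimum fold change, an FDR of 0.01, and leaving out each library. The edgeR, DESeq2 and limma-trend tests were tried on simulated counts, but not under every alternative setting listed here. Tables were joined with Python 3.11.15 and pandas 2.3.3, and plots drawn with matplotlib 3.10.9.

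Although the rule reads symbols alone, the gene group, its roles and the lists were chosen with earlier results of these data known. Values per library were given for called members, the 12 with the lowest p-values and the 2 most abundant of each role, and for some libraries of GCLM, SRXN1 and GSTA1-1, chosen after their values were seen. In the 4 further lists, the called genes and the 2 with the lowest p-values were named. Rows under another symbol were taken from the deposited annotation, because the RefSeq gene table (ARS-UI_Ramb_v3.0) gives no descriptions. That table matched 47 of the 49 genes by symbol and was used for neighbour order alone. LOC100037667, listed as a red blood cell marker, is annotated as a ribosomal protein and was left out. No sequence is shown, since no genome or protein table of this species was used here.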

Additional observations from a re-analysis of the deposited data

How the results depend on the processing

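Of 349 log2 fold changes of the 25 named genes under the alternatives, 320 kept their direction and their side of the threshold, 3 lost the call, 9 gained one and 17 reversed. The 3 lost calls were those of GPX3 without 1 QHMM library each. The count of up-regulated members was 0 at an FDR of 0.01 and 0 to 1 when 1 library was left out. The count of down-regulated members was 3 with DESeq2 (MGST3, GPX1 and NQO1), 2 without a filter (GPX1 and NQO1), 1 with limma-trend at either pseudocount (GPX1) and 0 to 2 when 1 library was left out. Members with separated breeds ranged from 3 to 6 higher and from 5 to 12 lower when 1 library was left out. Fewer libraries make separation easier for any gene, and the share over all genes was not counted for these fits. No reversed value was of a called gene, and under the alternatives that reversed them their FDRs were above 0.87. They were 0.045 and 0.052 for MGST2 with limma-trend at the pseudocounts of 1 and 0.1, and values within the ranges with 1 library left out, which were -0.35 to 0.053 for MGST2, -0.71 to 0.13 for GSTA1, -0.030 to 0.20 for GSTP1, -0.37 to 0.032 for TXNL4A, -0.16 to 0.99 for SOD1 and -0.15 to 0.17 for NFE2L2. For the lists, down-regulated thiol genes numbered 3 with DESeq2, 0 at an FDR of 0.01 and 0 to 2 with 1 library left out. Up-regulated NFE2L2 targets numbered 2 with DESeq2 and with limma-trend at either pseudocount. Down-regulated genes of the NADPH list numbered 2 with DESeq2, 0 with limma-trend at either pseudocount, 0 at an FDR of 0.01 and 0 to 1 with 1 library left out. Up-regulated selenoprotein genes numbered 0 to 1 with 1 library left out. Of the rows under another symbol, DESeq2 called 1 up-regulated and 4 down-regulated, and 3 were down-regulated without a filter, 1 with at least 10 counts in every library, 1 with limma-trend at either pseudocount and 0 to 2 with 1 library left out. The causes were not tested.

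The replicate numbers name animals, and the labels give no pairing between the breeds. Same-numbered libraries had correlations of 0.23, -0.04 and -0.13 in their deviations from the breed means. Differently numbered libraries had correlations from -0.26 to 0.29. A pairing or a shared batch was not tested by these correlations. With the replicate number as a block, the count of down-regulated thiol genes was 0 (GLRX5 was no longer called), and the counts of called members were unchanged. Over all genes, DESeq2 made 420 up-regulated and 555 down-regulated calls against 203 and 229 in edgeR, and the fit without a filter 366 and 440. With 1 library left out, the up-regulated calls ranged from 50 to 283 and the down-regulated from 81 to 252. Limma-trend on RPKM shifted the median log2 fold change of all genes by 0.09 (pseudocount 1) and 0.12 (0.1), and 61.3% and 61.9% of its calls were up-regulated against 47.0% in edgeR. Dividing RPKM by the TMM factor moved 4 of 50 mean levels by more than 1 SD, those of GPX1, GPX3, PRDX2 and PRDX5 in QHMM (145, 103, 354 and 156). The breeds are compared over 3 animals each, and genes with few reads, such as GSS, TXNDC16 and GPX2, had SEs of 0.44, 0.51 and 0.73.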
